A study of Mus musculus with 23 samples.

Results

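Hippocampal poly-A RNA of 23 mice was examined for 38 genes of the lysosome, chosen by gene name from the 37173 genes of a deposited count table. They were 13 hydrolases, 3 soluble cofactors, 8 membrane proteins, 1 transcription factor and 13 subunits of the proton pump, of which 5 belong to the membrane sector V0 and 8 to the catalytic sector V1. The cathepsins were left out by the rule. All 38 names were found once in the table, and all 38 genes passed the filter on low counts that left 19423 genes for testing. Each library came from 1 mouse of about 5 months. The genotypes were APP NLGF/NLGF P16 KO/KO (n = 6, written APP NLGF P16 KO), APP NLGF/NLGF (n = 5, APP NLGF), P16 KO/KO (n = 6, P16 KO) and WT (n = 6). APP NLGF is a knock-in of disease mutations at the mouse App gene itself, so that no transgene promoter is involved, and P16 KO denotes loss of the p16INK4A product of Cdkn2a, a brake on the cell cycle. The labels do not say which stretch of Cdkn2a was removed, nor the strain background. The design asked how loss of p16 changes hippocampal transcription with and without the App mutations.

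Lysosomes are acidic compartments in which hydrolases break down protein, lipid, glycan and glycogen delivered by endocytosis, phagocytosis and autophagy. The acid is supplied by the vacuolar proton pump, whose V1 sector splits ATP and whose V0 sector passes protons through the membrane. In neurons the same pump also acidifies synaptic vesicles, so its transcripts in whole hippocampus are not lysosomal alone. In the brain, microglia carry many lysosomes, and inherited loss of most of the hydrolases described here causes a neurodegenerative storage disease in humans.

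Total counts ran from 40693561 to 61178839 per library, so the members were counted with 233 reads in a library at the least (Tfeb) and 119590 at the most (Psap). Cdkn2a had 0, 6, 6, 2, 8 and 2 reads in APP NLGF P16 KO mice, 2, 6, 9, 4 and 4 in APP NLGF mice, 0, 1, 2, 1, 0 and 0 in P16 KO mice, and 6, 1, 3, 0, 5 and 2 in WT mice. At these counts the gene neither backs nor contradicts a label, and directions below refer to the genotypes as labelled. Markers of hippocampal subfields, neurons and glia were present in every library, with summed subfield markers of 482 to 610 CPM (read counts scaled to a common library size). Summed markers of choroid plexus, which borders the hippocampus, varied from 118 to 5667 CPM, over overlapping ranges in all genotypes, and 0 of 5 were called in any comparison by edgeR, at an unadjusted p under 0.05 likewise 0. Their part in the results was not tested. In APP NLGF P16 KO mice, library 21 lay past the submitters' distance limit on 5 principal components, and its summed oligodendrocyte markers were 7730 CPM, against 4432 to 6102 CPM in the other libraries. Counts of members called are given with and without it where they changed.

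Of the members, 10 carry in their promoters the 6-base core of the element through which Tfeb, a master regulator of lysosomal genes, is known to act in human cells, and these stretches are shown because the members are otherwise tied together only by function. RefSeq promoter windows on GRCm38.p6, from 250 bases before to 50 after the start site, were matched for 33 of the 38 genes. The core CACGTG, which reads the same on both strands, was in 10 of the 33 genes (30.3%), against 8.09% of all 27025 genes with a window. The longer GTCACGTG, searched on both strands and always overlapping the core, was in 8 of 33 (24.2%), against 2.55% of all genes, and TCACGTGA was in 4 of 33 (12.1%), against 1.12%. By class, the core was in 5 of 12 hydrolases, 2 of 7 membrane proteins, 3 of 10 pump subunits and 0 of 3 cofactors. The full 10-base palindrome of that element, the CLEAR consensus, was in 0 of 33 members, against 0.37% of all genes. The stretches below run 5′ to 3′ on the strand of the gene, with each core in capitals and 10 bases on either side. Hydrolases are represented by Gla (chrX:134601184-134601242, minus strand), Glb1 (chr9:114401020-114401045, plus strand) and Naglu (chr11:101070011-101070036, plus strand). Membrane proteins are represented by Lamp1 (chr8:13159090-13159161, plus strand) and Mcoln1 (chr8:3500438-3500489, plus strand), and the pump by Atp6v0b (chr4:117887332-117887375, minus strand) and Atp6v0d1 (chr8:105566052-105566077, minus strand).
Gla: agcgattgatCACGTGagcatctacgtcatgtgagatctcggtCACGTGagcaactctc
Glb1: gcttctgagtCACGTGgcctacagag
Naglu: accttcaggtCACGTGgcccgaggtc
Lamp1: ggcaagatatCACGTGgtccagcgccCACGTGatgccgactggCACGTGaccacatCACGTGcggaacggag
Mcoln1: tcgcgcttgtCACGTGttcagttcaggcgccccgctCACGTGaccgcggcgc
Atp6v0b: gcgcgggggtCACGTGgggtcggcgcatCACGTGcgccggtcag
Atp6v0d1: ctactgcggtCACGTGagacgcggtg
Lamp1 held 4 cores, between 61 and 15 bases before its start site, and Gla, Mcoln1 and Atp6v0b held 2 each. A match is a description of these letters, not a site shown to be bound.

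In WT hippocampus the pump subunits were among the most abundant members and the hydrolases mostly among the scarcest. Levels per kilobase are CPM divided by the length of the longest protein-coding transcript, so that genes can be compared. Psap, the precursor of the saposins that present lipids to hydrolases, led with 633 ± 61.7 CPM per kilobase (SD, n = 6). Next came the V1 subunits Atp6v1g2 (335 ± 11.8), Atp6v1b2 (301 ± 24.8) and Atp6v1e1 (271 ± 19.5), all in CPM per kilobase. Atp6v1g2 is the neuronal form of subunit G, and Atp6v1b2 is the brain form of subunit B. The gap between Atp6v1g2 and Atp6v1b2 lay within the sum of their SDs, and so did that between Atp6v1b2 and Atp6v1e1. The 4 hydrolases above 25 CPM per kilobase were Gaa (93.8 ± 7.42), which breaks down glycogen, Ppt1 (51.1 ± 2.18), which removes palmitate from proteins, Hexa (28.1 ± 1.99), the alpha subunit of the hexosaminidase that degrades GM2 ganglioside, and the peptidase Tpp1 (25.7 ± 1.55). At the low end, Gusb, the beta-glucuronidase, had 5.45 ± 0.48 CPM per kilobase, and Naglu and Sgsh, which degrade heparan sulfate, had 3.83 ± 0.44 and 2.18 ± 0.21. Gla, which removes galactose from globosides, had 3.71 ± 0.23 and Tfeb 3.23 ± 0.44 CPM per kilobase.

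**Figure D1:**
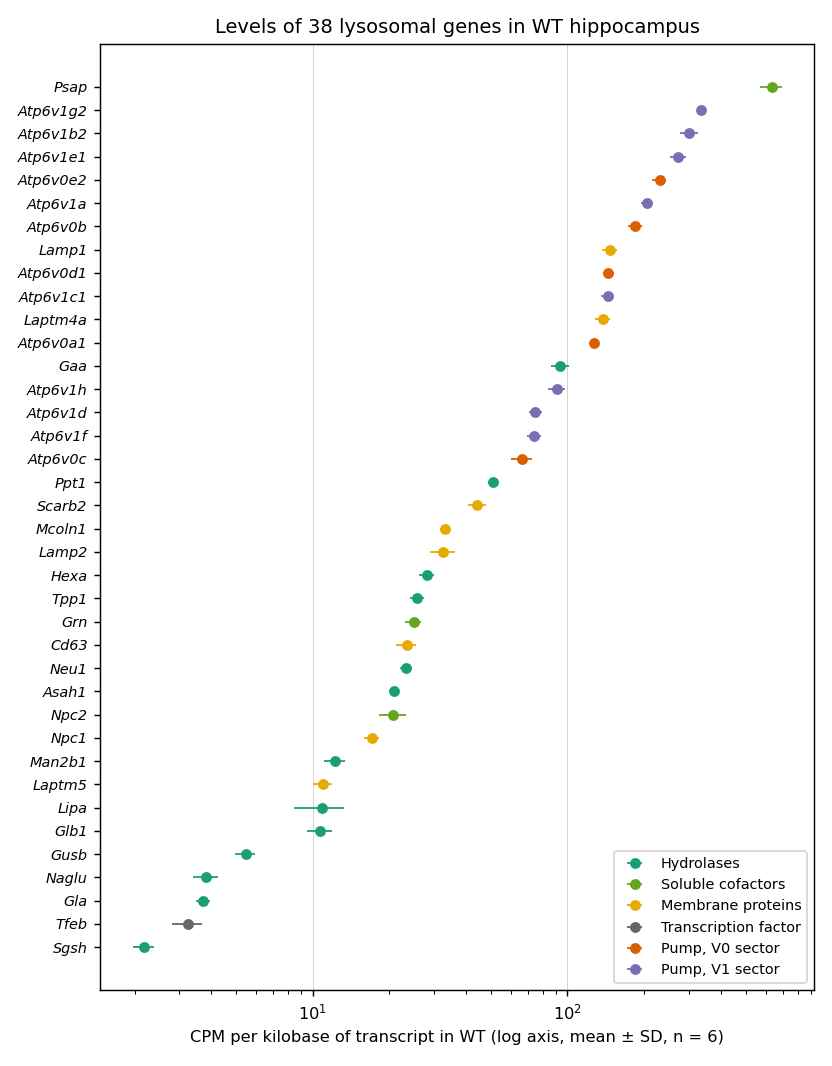
Level of each of the 38 genes in WT hippocampus, in CPM per kilobase of the longest protein-coding transcript on a log axis, as the mean with SD over 6 mice. Colours mark the classes. The pump subunits fill most of the upper end, below Psap, and the hydrolases Gusb, Naglu, Gla and Sgsh stand with Tfeb at the lower end.

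Among the membrane proteins, Lamp1 (147 ± 10.1) and Laptm4a (138 ± 9.60) were the most abundant in CPM per kilobase in WT mice. Lamp1 and Lamp2 (32.6 ± 3.74) coat the inside of the lysosomal membrane, and Laptm4a is a small membrane protein of late endosomes and lysosomes. Scarb2, the receptor that carries glucocerebrosidase to lysosomes, had 44.3 ± 3.50, and the calcium channel Mcoln1 had 33.2 ± 1.46 CPM per kilobase. The tetraspanin Cd63 had 23.4 ± 2.13, the cholesterol exporter Npc1 17.0 ± 1.2, and Laptm5, which is expressed mainly by cells of the blood and immune lineages, 11.0 ± 0.95 CPM per kilobase. Of the cofactors, Grn, the secreted and lysosomal protein progranulin, had 24.9 ± 1.76 and Npc2, which hands cholesterol to Npc1, 20.7 ± 2.54 CPM per kilobase.

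The App mutations raised 3 members, each by a modest amount. These were Gusb, progranulin (Grn) and Laptm5, and they came from 3 different classes. Gusb was 1.23-fold higher, Grn 1.2-fold and Laptm5 1.37-fold when the App effect was averaged over mice with and without p16. Of the 13 pump subunits 0 were called in that average, 0 had an unadjusted p under 0.05, and DESeq2 called 0. Levels in whole tissue cannot tell more cells of a type from more RNA per cell.

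Gusb (chr5:129989011-130003049) had 18.2, 19.2 and 21.3 CPM in APP NLGF P16 KO mice, 17.8, 18.5, 19.3, 17.3 and 17.8 CPM in APP NLGF mice, 14.8, 15.9 and 16.8 CPM in P16 KO mice and 13.0, 14.7 and 16.2 CPM in WT mice. In groups of 6 the 3 values are the lowest, the median and the highest, here and below. Every mouse with the App mutations lay above every mouse without them. Gusb rose by a log2 fold change of 0.31 ± 0.06 (SE) in APP NLGF over WT mice (edgeR's quasi-likelihood test, Benjamini-Hochberg adjusted p = 0.0178, higher in 5 of 5) and by 0.28 ± 0.06 in APP NLGF P16 KO over P16 KO mice (adjusted p = 0.038, higher in 6 of 6). Averaged over both, the log2 fold change was 0.29 ± 0.04 (adjusted p = 0.000182). The call in the first comparison was lost with no count filter (adjusted p = 0.055), with the compared genotypes alone (adjusted p = 0.0717) and without WT library 1, 2 or 5 or APP NLGF library 15 (adjusted p up to 0.0877). That in the second was lost with no count filter (adjusted p = 0.152), with the compared genotypes alone (adjusted p = 0.178) and in 8 of 12 fits without 1 library, namely P16 KO library 7, 9, 10, 11 or 12 or APP NLGF P16 KO library 18, 20 or 21 (up to 0.131). The averaged call was kept without each of the 23 libraries.

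Grn (chr11:102430315-102437048) had 61.2, 71.5 and 76.9 CPM in APP NLGF P16 KO mice, 66.5, 67.0, 77.0, 65.7 and 72.3 CPM in APP NLGF mice, 54.0, 58.9 and 62.3 CPM in P16 KO mice and 50.7, 59.3 and 62.2 CPM in WT mice. All 5 APP NLGF mice lay above all WT mice, while the lowest APP NLGF P16 KO mouse lay within the range of the P16 KO mice. Grn did not pass in either comparison alone, with log2 fold changes of 0.26 ± 0.06 over WT (adjusted p = 0.0775) and 0.26 ± 0.06 over P16 KO (adjusted p = 0.0639), but passed in the average at 0.26 ± 0.04 (adjusted p = 0.000994).

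Laptm5 (chr4:130913125-130936141) had 28.8, 37.8 and 43.3 CPM in APP NLGF P16 KO mice, 36.9, 37.2, 45.3, 37.8 and 40.0 CPM in APP NLGF mice, 20.7, 26.9 and 34.8 CPM in P16 KO mice and 24.0, 29.4 and 31.2 CPM in WT mice. APP NLGF and WT mice did not overlap, and APP NLGF P16 KO and P16 KO mice did. The log2 fold change was 0.46 ± 0.11 over WT (adjusted p = 0.0807), 0.45 ± 0.11 over P16 KO (adjusted p = 0.102) and 0.45 ± 0.08 in the average (adjusted p = 0.00155), by edgeR's quasi-likelihood test. Like Grn, it kept the averaged call without each of the 23 libraries.

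**Figure D2:**
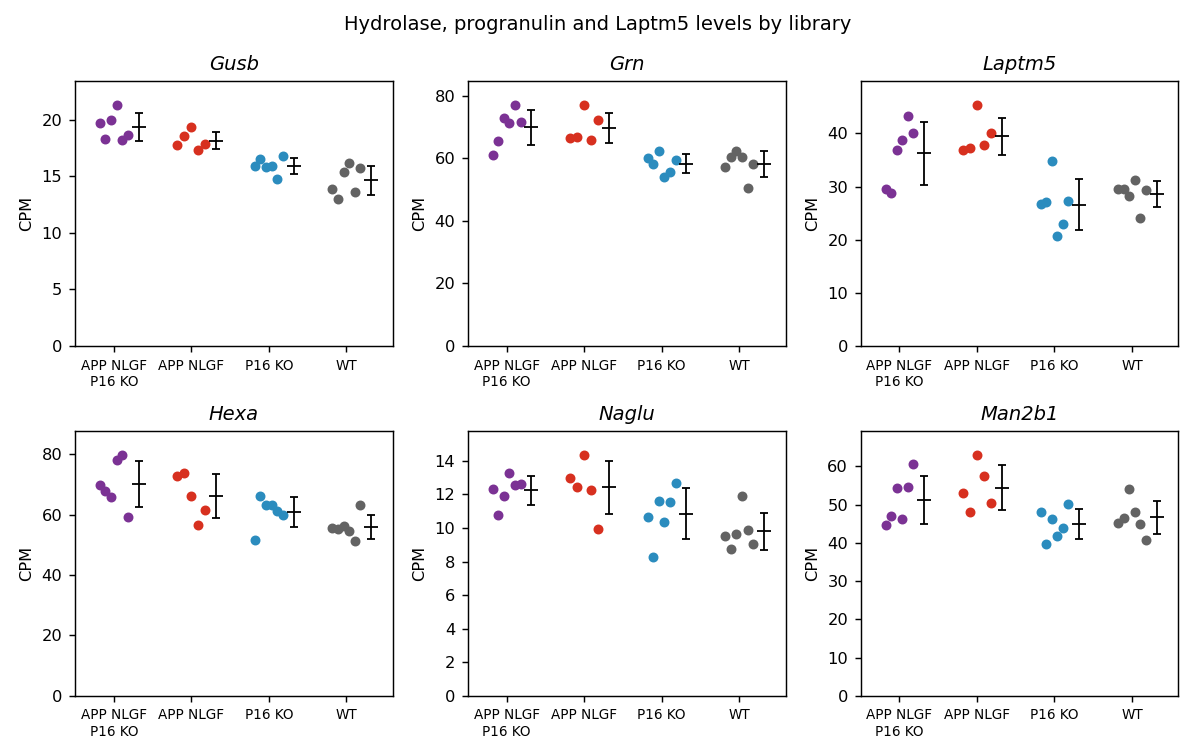
CPM of Gusb, Grn, Laptm5, Hexa, Naglu and Man2b1 in each mouse, by genotype, with the mean and SD of each genotype beside the points. The 11 mice with the App mutations lie above the 12 without them for Gusb, while the genotypes overlap for Hexa, Naglu and Man2b1.

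Hexa, Naglu and Man2b1 had the next smallest p-values among the hydrolases without passing. Hexa had 59.3, 68.8 and 79.8 CPM in APP NLGF P16 KO mice, 72.7, 73.8, 66.1, 56.7 and 61.4 CPM in APP NLGF mice, 51.6, 62.1 and 66.1 CPM in P16 KO mice and 51.2, 55.5 and 63.2 CPM in WT mice, with an averaged log2 difference of 0.22 ± 0.05 (edgeR adjusted p = 0.0517). The ranges overlapped in both comparisons. Naglu had an averaged log2 difference of 0.26 ± 0.07 (edgeR adjusted p = 0.0853) and the mannosidase Man2b1 one of 0.21 ± 0.06 (edgeR adjusted p = 0.125). Npc2 had 74.6, 83.4 and 105 CPM in APP NLGF P16 KO mice, 82.1, 80.6, 84.7, 77.0 and 77.5 CPM in APP NLGF mice, 67.4, 71.1 and 90.4 CPM in P16 KO mice and 58.0, 70.0 and 79.7 CPM in WT mice, with an averaged log2 difference of 0.20 ± 0.06 (edgeR adjusted p = 0.175). Values were 0.17 ± 0.08 for Cd63 (edgeR adjusted p = 0.451) and 0.08 ± 0.10 for Tfeb (edgeR adjusted p = 0.845) on the same log2 scale. Of the pump, the averaged App differences with the smallest p-values were 0.08 ± 0.04 for Atp6v0b and 0.06 ± 0.04 for Atp6v0e2 in V0, and 0.06 ± 0.04 for Atp6v1g2 and 0.09 ± 0.06 for Atp6v1f in V1, none of them called. Tfeb itself had 5.88, 8.56 and 10.2 CPM in APP NLGF P16 KO mice, 6.68, 9.06, 9.55, 8.70 and 5.69 CPM in APP NLGF mice, 6.48, 7.32 and 9.26 CPM in P16 KO mice and 6.48, 7.32 and 9.47 CPM in WT mice, so all genotypes overlapped.

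In counts, 1 of 38 members was higher in APP NLGF than in WT mice, where 0.304% of all genes tested were called higher (0.319% in either direction), and 1 of 38 was higher in APP NLGF P16 KO than in P16 KO mice, where 0.221% were (0.247% in either direction). The averaged App effect called 3 of 38 higher, against 0.649% of all genes (0.793% in either direction). No member was called lower in these 3 comparisons, in which 0.0154%, 0.0257% and 0.144% of all genes were, and none had an unadjusted p under 0.05 downward. Upward, 8, 6 and 9 members had an unadjusted p under 0.05, against 8.54%, 7.89% and 10.4% of all genes in either direction. DESeq2 likewise called 0 members lower, and called 3, 3 and 5 higher, against 126, 73 and 195 of the 19423 genes called higher by it. Groups that did not overlap were found for Gusb, Grn and Laptm5 in APP NLGF over WT mice (1.05% of all genes, and 0.829% lower) and for Gusb alone in APP NLGF P16 KO over P16 KO mice (0.335%). As a class, 10 of 13 hydrolases had a positive log2 difference in APP NLGF against WT mice, with a median of 0.03, and 12 of 13 in APP NLGF P16 KO against P16 KO mice, with a median of 0.09. The median over all genes was -0.0010 and 0.0052. Of the pump subunits, 3 of 13 had a positive log2 difference in APP NLGF against WT mice, with a median of -0.04, and 12 of 13 in APP NLGF P16 KO against P16 KO mice, with a median of 0.09. The 3 cofactors had medians of 0.23 and 0.17, and the 8 membrane proteins 0.03 and 0.10.

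Microglial markers moved with the App genotype. All 10 markers listed had positive log2 differences in both comparisons, none of them called in either and 2 (Aif1 and Gpr34) called in the average. Their summed level was 298 to 349 CPM in APP NLGF P16 KO mice, 319 to 352 in APP NLGF mice, 274 to 302 in P16 KO mice and 267 to 294 in WT mice, and no marker was at 0 in any genotype. Their part in the levels of Gusb, Grn and Laptm5 was not tested.

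Loss of p16 was accompanied by higher transcripts of most of the 13 proton pump subunits among the members. In the effect averaged over App genotypes, 8 of 13 pump subunits rose and 0 of 13 hydrolases did, and the only other member called was Laptm4a. The rises were small, from 1.08-fold for Atp6v1g2 to 1.2-fold for Atp6v1f. The background was high in this comparison, since 7.66% of all genes tested were called higher and 5.32% lower. No member was called lower, against 5.32% of all genes, and at an unadjusted p under 0.05 or with DESeq2 the number was also 0. For the hydrolases, 3 of 13 had an unadjusted p under 0.05 upward, and DESeq2 called 2, Neu1 and Lipa, against 1728 of the 19423 genes called higher by it. No test set one class against the other. Among 10 neuronal markers 2 were called higher (Tubb3 and Slc17a7) and 1 lower (Map2) in the same average, and their summed level was 11279 to 12766 CPM in APP NLGF P16 KO mice, 12320.3 to 13085 in APP NLGF mice, 12085 to 12722 in P16 KO mice and 11863 to 13505 in WT mice. Of the 10 microglial markers Aif1 and Tmem119 were called higher in this average, while 2 others, Sall1 and Siglech, were lower at an unadjusted p under 0.05 without being called. The endothelial markers Flt1 and Kdr (2 of 4) and the astrocytic Slc1a2 (1 of 5) were called lower. Summed endothelial markers were 97.5 to 119 CPM in APP NLGF P16 KO mice, 108 to 125 in APP NLGF mice, 87.2 to 123 in P16 KO mice and 95.1 to 123 in WT mice. Summed astrocytic markers were 4085 to 4739.5 CPM in APP NLGF P16 KO mice, 4407 to 5028 in APP NLGF mice, 4155 to 4895 in P16 KO mice and 4487 to 4847 in WT mice. Of 6 oligodendrocyte markers edgeR called 0, and 2 had an unadjusted p under 0.05 upward. Their log2 differences were positive in 4 and negative in 2, with a median of 0.13. They summed to 4742 to 7730 CPM in APP NLGF P16 KO mice and 4662 to 5928 in APP NLGF mice. In P16 KO mice the sum was 4559 to 5946 CPM and in WT mice 4432 to 5845. The part of these cell types in the pump levels was not tested.

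Atp6v1f, a small subunit of the V1 stalk (chr6:29467718-29470512), had 63.1, 74.1 and 90.0 CPM in APP NLGF P16 KO mice, 59.8, 68.8, 59.5, 54.0 and 64.4 CPM in APP NLGF mice, 59.4, 70.7 and 77.0 CPM in P16 KO mice and 55.3, 60.0 and 65.3 CPM in WT mice. Its averaged log2 fold change was 0.27 ± 0.06 (edgeR adjusted p = 0.00906). Among APP NLGF P16 KO mice, library 23 was lower than the other 5, which all lay above the APP NLGF mice, and P16 KO and WT mice overlapped.

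Atp6v0b, a proton-carrying ring subunit of V0 (chr4:117884326-117887333, on the chromosome that also carries Cdkn2a), had 193, 229 and 247 CPM in APP NLGF P16 KO mice, 196, 219, 199.6, 173 and 191 CPM in APP NLGF mice, 193, 219 and 235 CPM in P16 KO mice and 169.8, 186 and 199 CPM in WT mice. It rose by 0.22 ± 0.04 on the log2 scale (edgeR adjusted p = 0.00841). Only WT library 1 reached into the range of the P16 KO mice, and library 23 was again the lowest of its genotype. Atp6v0b and Atp6v1f kept their averaged calls in all 31 alternative fits.

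Atp6v1b2 (chr8:69088646-69113711) had 778, 1004 and 1114 CPM in APP NLGF P16 KO mice, 879, 842, 806, 760.3 and 847 CPM in APP NLGF mice, 852, 899 and 968 CPM in P16 KO mice and 773, 844 and 965 CPM in WT mice. Atp6v1e1, which forms the outer stalk of V1 with subunit G (chr6:120794305-120822793), had 329, 419 and 455 CPM in APP NLGF P16 KO mice, 367, 365, 331, 309 and 358 CPM in APP NLGF mice, 350.1, 383 and 395 CPM in P16 KO mice and 334, 349 and 399 CPM in WT mice. In both genes 5 APP NLGF P16 KO mice lay above all APP NLGF mice and library 23 did not, and P16 KO mice overlapped WT mice. The averaged log2 fold changes were 0.18 ± 0.05 for Atp6v1b2 (edgeR adjusted p = 0.0241) and 0.17 ± 0.05 for Atp6v1e1 (edgeR adjusted p = 0.0244).

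Of the V0 sector, Atp6v0e2, a small subunit known mainly from brain (chr6:48537615-48541801), had 403, 496 and 521 CPM in APP NLGF P16 KO mice, 448, 440.4, 418, 368 and 419 CPM in APP NLGF mice, 421, 448 and 483 CPM in P16 KO mice and 384, 408 and 455 CPM in WT mice. Atp6v0d1, which joins the V0 ring to the central stalk (chr8:105524465-105566047), had 223, 269.6 and 289 CPM in APP NLGF P16 KO mice, 244, 254, 225, 215 and 227 CPM in APP NLGF mice, 233, 256 and 262 CPM in P16 KO mice and 216, 236 and 255 CPM in WT mice. The pattern was the same in both, with library 23 apart from 5 high APP NLGF P16 KO mice and an overlap of P16 KO with WT mice. Atp6v0e2 rose by 0.16 ± 0.04 (edgeR adjusted p = 0.0211) and Atp6v0d1 by 0.15 ± 0.04 (edgeR adjusted p = 0.0247) on the log2 scale.

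**Figure D3:**
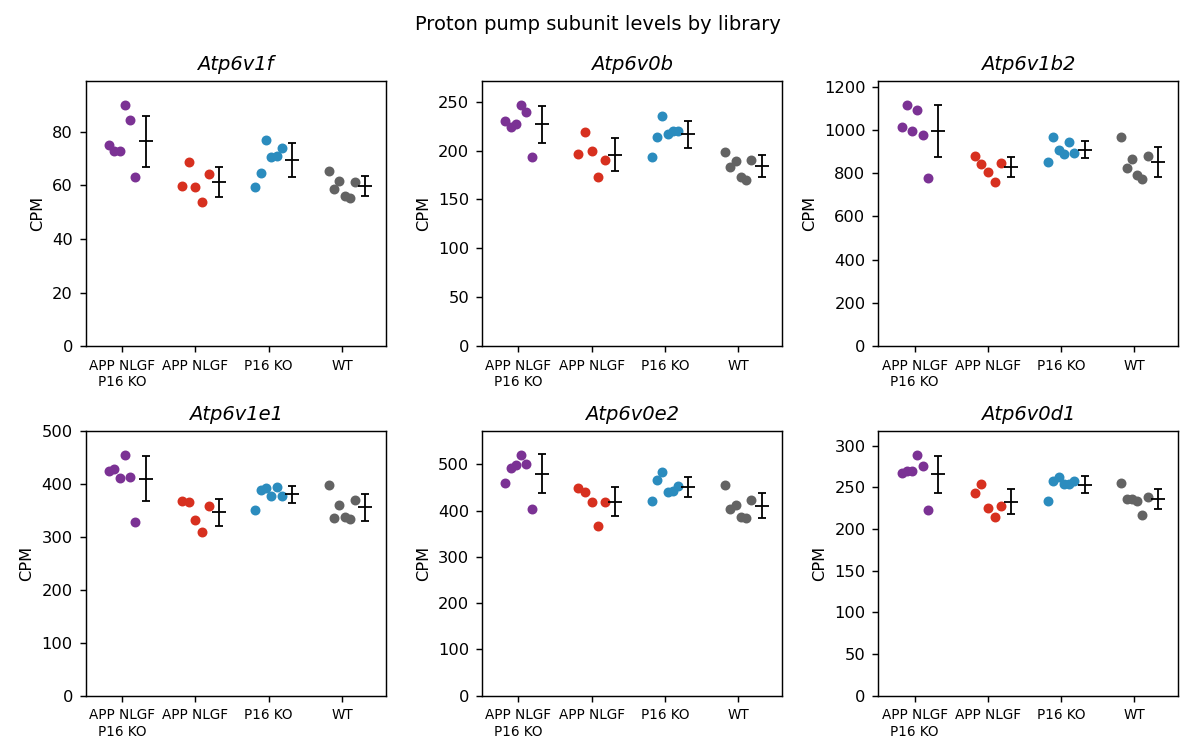
CPM of 6 proton pump subunits in each mouse, by genotype, with the mean and SD of each genotype beside the points. In each panel 5 of the 6 APP NLGF P16 KO mice stand above all APP NLGF mice, and the sixth, library 23, stands among them. P16 KO and WT mice overlap in all 6 panels.

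Atp6v1g2, Atp6v1c1 and Laptm4a lay close to the threshold. Atp6v1g2 (chr17:35233660-35238767) had 541, 563 and 665 CPM in APP NLGF P16 KO mice, 515, 508, 523, 508 and 496 CPM in APP NLGF mice, 473, 528 and 569.7 CPM in P16 KO mice and 485, 514 and 535 CPM in WT mice, and rose by 0.11 ± 0.04 on the log2 scale (edgeR adjusted p = 0.0434). It was the only member whose APP NLGF P16 KO and APP NLGF mice did not overlap (0.608% of all genes higher, 0.52% lower), and P16 KO mice spanned the WT range. Atp6v1c1, which links the V1 stalks (chr15:38661933-38692446), had 267, 337 and 354 CPM in APP NLGF P16 KO mice, 301, 293, 275, 271 and 301 CPM in APP NLGF mice, 290.3, 312 and 340.1 CPM in P16 KO mice and 282, 295 and 321 CPM in WT mice, with 0.13 ± 0.04 on the log2 scale (edgeR adjusted p = 0.0492). Laptm4a (chr12:8921664-8938742) had 218, 278 and 315 CPM in APP NLGF P16 KO mice, 246, 259, 240.4, 231 and 245 CPM in APP NLGF mice, 241, 263 and 274 CPM in P16 KO mice and 225, 242 and 266 CPM in WT mice, with 0.15 ± 0.05 (edgeR adjusted p = 0.0443). For both, library 23 was the lowest of all 23 libraries. In 31 alternative fits the call was kept 9 times for Atp6v1g2, 7 times for Atp6v1c1 and 11 times for Laptm4a, against 30 for Atp6v1b2 and Atp6v1e1, 29 for Atp6v0e2 and 28 for Atp6v0d1.

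The number of members called turned on single libraries. It was 2 (Atp6v1f and Atp6v0b) without APP NLGF library 16, 5 without WT library 5, and 15 without WT library 1 or without APP NLGF P16 KO library 23. The calls over all genes moved too, from 2522 with all libraries to 762 without APP NLGF library 16 and 1180 without WT library 5. They numbered 3656 without WT library 1 and 5117 without library 23. Library 23 was the lowest of its genotype in 10 of 12 pump subunits, Atp6v0c left aside, WT library 1 the highest in 10 of 12, APP NLGF library 16 the lowest in 7 of 12 and P16 KO library 7 the lowest in 9 of 12. Without library 21, past the distance limit, 6 members and 1410 of all genes were called. The calls of Atp6v1g2, Atp6v1c1 and Laptm4a were lost in that fit. Without libraries 21 and 23 together, an alternative chosen after seeing the data, 14 members were called, 11 of them pump subunits, and 4251 of all genes.

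The remaining subunits of V1 had positive averaged log2 differences that missed the threshold, namely Atp6v1d (0.13, adjusted p = 0.0534), Atp6v1h (0.14, adjusted p = 0.0912) and the catalytic subunit Atp6v1a (0.12, adjusted p = 0.142), all by edgeR. Atp6v0a1, the neuronal form of the large V0 subunit, went the other way. It had 444, 486 and 525 CPM in APP NLGF P16 KO mice, 497, 462, 498, 511 and 488 CPM in APP NLGF mice, 424, 477 and 491 CPM in P16 KO mice and 495, 503 and 537 CPM in WT mice. Here P16 KO mice lay below all WT mice without overlap (0.602% of all genes, lower), the log2 difference was -0.13 ± 0.05 (edgeR adjusted p = 0.211), and APP NLGF P16 KO mice spanned the APP NLGF range.

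Among the members outside the pump that were not called, the smallest p-values for p16 were those of Neu1, Lamp1, Lipa, Psap, Gusb and Cd63. The sialidase Neu1 had 58.5, 62.7 and 66.7 CPM in APP NLGF P16 KO mice, 63.3, 62.3, 58.3, 52.6 and 58.4 CPM in APP NLGF mice, 59.8, 61.5 and 63.7 CPM in P16 KO mice and 54.1, 58.0 and 60.6 CPM in WT mice, with an averaged log2 difference of 0.10 ± 0.04 (edgeR adjusted p = 0.0652). Lipa, the acid lipase for cholesteryl esters and triglycerides, had 33.2, 38.6 and 48.7 CPM in APP NLGF P16 KO mice, 30.9, 29.9, 43.2, 31.1 and 28.3 CPM in APP NLGF mice, 31.0, 38.2 and 47.5 CPM in P16 KO mice and 26.4, 30.8 and 46.1 CPM in WT mice, with 0.28 ± 0.11 (edgeR adjusted p = 0.0871). Its values varied widely in both genotypes without p16. In WT mice library 1 stood apart at 46.1 CPM (others 26.4 to 31.9), and in APP NLGF mice library 15 at 43.2 CPM (others 28.3 to 31.1). The ranges of all genotypes overlapped. Psap had 1697, 1823 and 2089 CPM in APP NLGF P16 KO mice, 1762, 1659.9, 1817, 1651 and 1662 CPM in APP NLGF mice, 1623, 1763 and 2004 CPM in P16 KO mice and 1427, 1676 and 1894 CPM in WT mice, and Lamp1 averaged 377 ± 44.4 CPM in APP NLGF P16 KO mice, 338 ± 16.3 in APP NLGF mice, 347 ± 12.5 in P16 KO mice and 328 ± 22.6 in WT mice. Library 21 raised this Lamp1 mean of APP NLGF P16 KO mice, with 460.1 CPM against 332.7 to 376.2 in the others of its genotype. Averaged log2 differences were 0.11 ± 0.04 for Gusb (edgeR adjusted p = 0.0933), 0.20 ± 0.08 for Cd63 (edgeR adjusted p = 0.0934), 0.12 ± 0.05 for Psap (edgeR adjusted p = 0.0927), 0.12 ± 0.06 for Npc2 (edgeR adjusted p = 0.185), 0.12 ± 0.05 for Lamp1 (edgeR adjusted p = 0.0753) and 0.05 ± 0.10 for Tfeb (edgeR adjusted p = 0.763).

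In the single p16 comparisons no member passed. For APP NLGF P16 KO over APP NLGF mice, edgeR called 0 of 38 members and 0.0309% of all genes, and 14 of 38 had an unadjusted p under 0.05, all upward. DESeq2 called 6 members and 676 of the 19423 genes. At the unadjusted level 23.5% of all genes stood, against 11 of 13 pump subunits, 3 of 8 membrane proteins and 0 of 13 hydrolases. The pump subunits had a median log2 difference of 0.19, the hydrolases 0.04 and all genes 0.01, and the largest among the subunits was 0.32 ± 0.08 for Atp6v1f (edgeR adjusted p = 0.112). Without library 23, 14 of 38 members were called, and 4156 of all genes against 6 with it. For P16 KO over WT mice, edgeR called 0 of 38 and 0.309% of all genes (0.0463% lower), and 3 members had an unadjusted p under 0.05 upward and 2 downward (15.8% of all genes either way). DESeq2 called 1 member, Atp6v0b, and 469 of the 19423 genes. The pump subunits had a median log2 difference of 0.08, the hydrolases 0.02 and all genes -0.01.

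**Figure D4:**
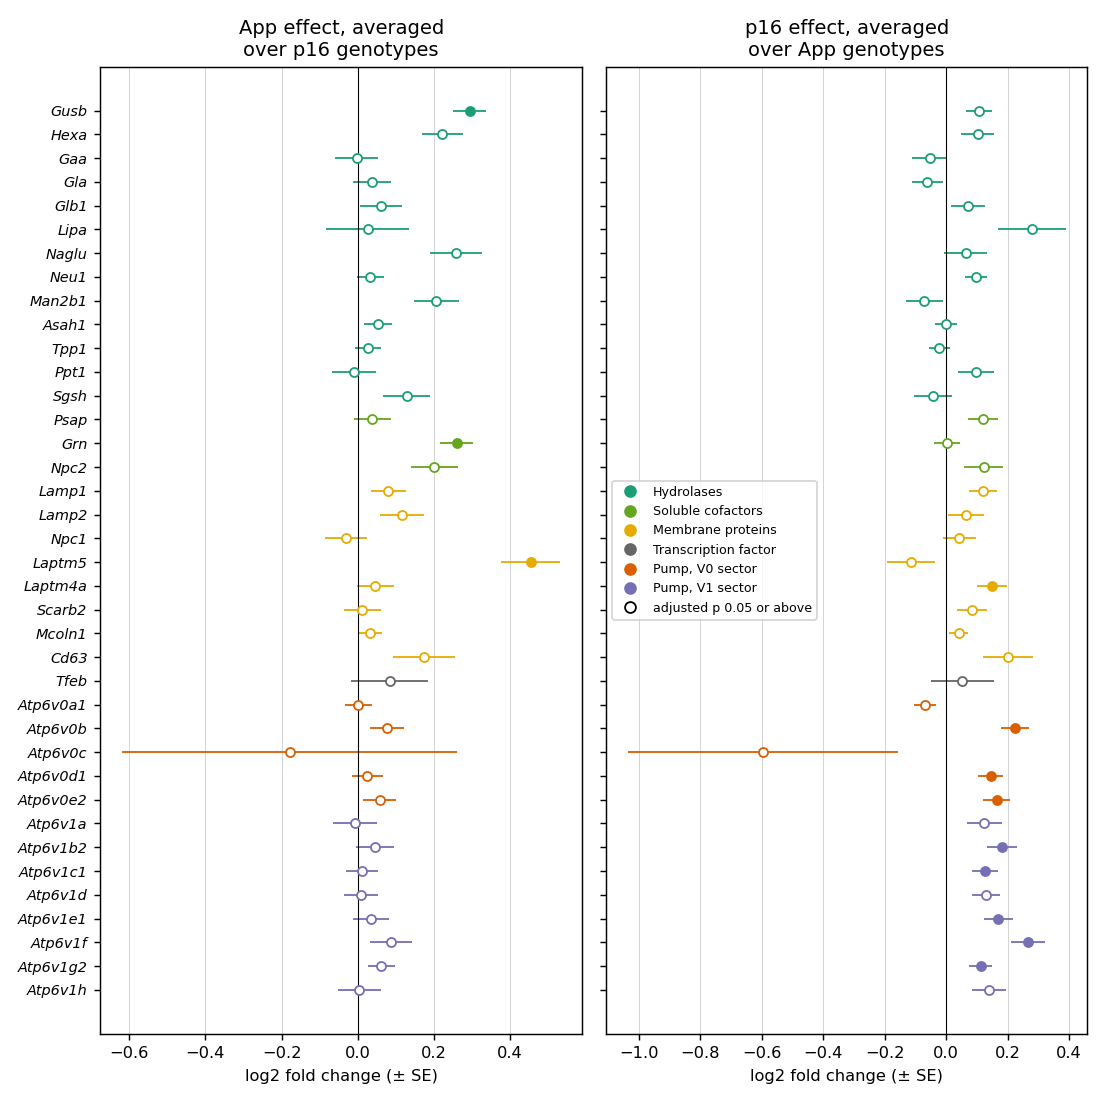
Log2 fold change with SE of each of the 38 genes for the App effect averaged over p16 genotypes (left) and the p16 effect averaged over App genotypes (right), grouped by class, on separate horizontal scales. Filled points passed an adjusted p of 0.05. Filled points stand at Gusb, Grn and Laptm5 on the left and at 8 pump subunits and Laptm4a on the right, where the wide bar of Atp6v0c runs to the left.

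The difference between hydrolases and pump was followed in each library as the mean log2 CPM of the 13 hydrolases minus that of the 12 pump subunits other than Atp6v0c, a choice made after seeing the data. It averaged -3.07 ± 0.12 in APP NLGF P16 KO mice (SD, n = 6), -2.92 ± 0.10 in APP NLGF mice (SD, n = 5), -3.09 ± 0.05 in P16 KO mice (SD, n = 6) and -3.05 ± 0.08 in WT mice (SD, n = 6). On this log2 scale APP NLGF mice differed from WT mice by 0.13 and APP NLGF P16 KO mice from P16 KO mice by 0.02. APP NLGF P16 KO mice differed from APP NLGF mice by -0.15 and P16 KO mice from WT mice by -0.04. Differences of 0.13 and -0.15 exceeded the SDs within genotypes, and the other 2 did not. Without single libraries the 0.13 ran from 0.092 to 0.16 and the -0.15 from -0.20 to -0.12. The 0.02 became -0.03 without APP NLGF P16 KO library 23, and the -0.04 became -0.014 without WT library 4. With Atp6v0c among 13 subunits APP NLGF mice differed from WT mice by 0.15. APP NLGF P16 KO mice differed from P16 KO mice by 0.05, and single libraries moved this to between 0.018 (without APP NLGF P16 KO library 23) and 0.086 (without P16 KO library 7). They differed from APP NLGF mice by -0.05, with a range from -0.076 (without APP NLGF P16 KO library 23) to -0.0048 (without APP NLGF library 15). P16 KO mice differed from WT mice by 0.05, with a range from 0.012 (without P16 KO library 7) to 0.080 (without WT library 4). The pump mean was 8.49 ± 0.12 in APP NLGF P16 KO mice, 8.29 ± 0.07 in APP NLGF mice, 8.40 ± 0.05 in P16 KO mice and 8.32 ± 0.07 in WT mice, and library 23 stood at 8.24 while the other 5 of its genotype stood at 8.51 to 8.57. The hydrolase mean was 5.42 ± 0.04 in APP NLGF P16 KO mice, 5.37 ± 0.06 in APP NLGF mice, 5.31 ± 0.03 in P16 KO mice and 5.27 ± 0.07 in WT mice. No p is given for these scores, since their members were a choice.

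No member was called for an interaction of App and p16. EdgeR called 0 of 38 members and 0% of all genes tested, 0 members had an unadjusted p under 0.05 (5.26% of all genes), and DESeq2 called 0 members. For Gusb the interaction was -0.03 ± 0.09 on the log2 scale and for Atp6v1f 0.10 ± 0.11, with SE. It was positive in 12 of 13 pump subunits, with a median of 0.11, and in 8 of 8 subunits of V1, from 0.10 to 0.20. Among the hydrolases 6 of 13 were positive, with a median of -0.02, and the median over all genes was 0.0038. With 0 genes called at all, these tests do not show that an interaction was absent.

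Atp6v0c, which forms most of the proton-carrying ring of V0, could not be read like the other subunits. Its reads fell into 3 separate ranges that divided every genotype except WT, and the lowest range was seen only in mice without p16. In APP NLGF P16 KO mice it had 89.5, 10.7, 9.54, 11.2, 101.5 and 51.9 CPM, in APP NLGF mice 88.6, 81.7, 47.9, 42.3 and 77.7, in P16 KO mice 9.72, 44.8, 51.5, 81.6, 10.0 and 106.1, and in WT mice 78.8, 79.0, 91.3, 75.5, 69.9 and 75.3. All WT mice held the high range. Values near 10 CPM occurred in 3 APP NLGF P16 KO and 2 P16 KO mice, and values of 42.3 to 51.9 CPM in 1 APP NLGF P16 KO, 2 APP NLGF and 2 P16 KO mice.

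Atp6v0c lies at chr17:24163866-24169702, and a processed copy, Atp6v0c-ps2, at chr6:37806086-37806550. The copy had 25.0 to 30.3 CPM in the 5 low libraries, 10.6 to 14.5 in the 5 middle ones and at most 0.23 in the 13 high ones. The sum of both was 35.0 to 40.1, 52.9 to 65.5 and 70.0 to 106 CPM in these 3 sets, so it was not equal. Rps2, a ribosomal protein gene on the same chromosome (chr17:24718116-24721929), followed the same libraries with 1.87 to 2.69, 25.0 to 31.7 and 42.1 to 69.7 CPM. Tbc1d24, the neighbour at chr17:24175431-24205562, had 122 to 154, 120 to 135 and 111 to 137 CPM in the low, middle and high sets. These ranges overlapped, with the highest values in the low set. A 2nd pair followed them too. Rnps1 (chr17:24414565-24425901) had 21.1 to 26.4, 32.3 to 34.9 and 40.8 to 47.3 CPM in the low, middle and high sets. Its copy Rnps1-ps (chr6:7982541-7983383) had 8.43 to 9.60, 4.03 to 4.59 and at most 0.24 CPM. The cause of the 3 ranges was not tested. Only uniquely aligned reads were counted, which a near-identical copy can affect, so the level of Atp6v0c is uncertain. Its averaged p16 log2 difference was -0.60 ± 0.44 (edgeR adjusted p = 0.378), and that of the summed counts, added after seeing the data, was -0.25 ± 0.20 (edgeR adjusted p = 0.409). For App they were -0.18 ± 0.44 (edgeR adjusted p = 0.94) and -0.08 ± 0.20 (edgeR adjusted p = 0.944).

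**Figure D5:**
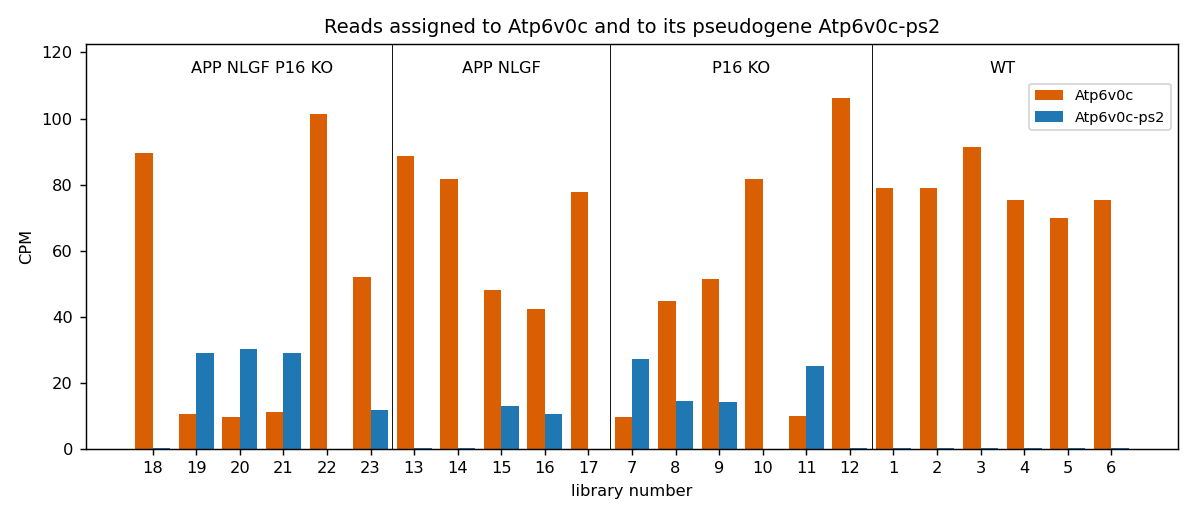
CPM assigned to Atp6v0c and to its copy Atp6v0c-ps2 in each of the 23 libraries, grouped by genotype, as bars from 0. Where Atp6v0c is near 10 CPM the copy stands at 25.0 to 30.3 CPM, and in all 6 WT libraries the copy is near 0.

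The hydrolases not yet described had no called difference between genotypes by edgeR. Gaa averaged 328 ± 37.3 CPM in APP NLGF P16 KO mice, 343 ± 40.3 in APP NLGF mice, 331 ± 24.4 in P16 KO mice and 341 ± 27.0 in WT mice. Tpp1 averaged 91.9 ± 4.27 CPM in APP NLGF P16 KO mice, 94.4 ± 4.13 in APP NLGF mice, 91.3 ± 4.44 in P16 KO mice and 91.6 ± 5.53 in WT mice. Asah1, the acid ceramidase, averaged 60.1 ± 4.36 CPM in APP NLGF P16 KO mice, 58.6 ± 1.99 in APP NLGF mice, 56.4 ± 3.02 in P16 KO mice and 57.9 ± 2.56 in WT mice. For these 3 enzymes the averaged App and p16 log2 differences ran from -0.05 (Gaa, p16) to 0.05 (Asah1, App), none of them called. Glb1, the beta-galactosidase whose activity at raised pH is used as a mark of senescent cells, averaged 28.0 ± 2.13 CPM in APP NLGF P16 KO mice, 25.6 ± 0.59 in APP NLGF mice, 25.7 ± 3.17 in P16 KO mice and 25.6 ± 2.90 in WT mice. Its log2 difference was 0.06 ± 0.06 for App (edgeR adjusted p = 0.766) and 0.07 ± 0.06 for p16 (edgeR adjusted p = 0.416). Gla, Ppt1 and Sgsh had averaged App differences of 0.04, -0.01 and 0.13 and averaged p16 differences of -0.06, 0.10 and -0.04, none of them called. Sgsh was 0.19 ± 0.09 in APP NLGF against WT mice (unadjusted p = 0.0414, edgeR adjusted p = 0.572). Lamp2, Npc1, Scarb2 and Mcoln1 had averaged App differences from -0.03 to 0.12 and p16 differences from 0.04 to 0.08, none of them called.

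A wider list of 102 other lysosomal genes, 95 of them tested, placed the members among their neighbours. Those called higher in both App comparisons included Cd68, a sialomucin of phagocytes, and Slc11a1, a metal exporter of phagocytic lysosomes. Cd68 rose by 0.88 ± 0.09 in APP NLGF over WT mice (edgeR adjusted p = 1.44e-06) and by 0.97 ± 0.09 in APP NLGF P16 KO over P16 KO mice (edgeR adjusted p = 1.55e-07), on the log2 scale. Slc11a1 rose by 0.84 ± 0.14 and 0.80 ± 0.13 in the same comparisons. In the averaged p16 effect 14 of 95 were called higher and 2 lower, against 7.66% and 5.32% of all genes. The higher ones included a further pump subunit, Atp6v1g1 (0.37 ± 0.07, edgeR adjusted p = 0.00489), an accessory subunit, Atp6ap1, and the enzymes Hyal2, Smpd1, Pla2g15 and Hgsnat. By class, 2 of 15 other pump genes tested were called higher (median log2 difference 0.05), and 4 of 24 other hydrolases (median 0.06). The contrast of pump with hydrolases among the members was thus not repeated in this list. The lower ones were Igf2r, a mannose 6-phosphate receptor, and the kinase Mtor. The other such receptor, M6pr, and the genes Rraga, Rragc, Lamtor1, Lamtor4 and Flcn were called higher. In the single p16 comparisons the smallest adjusted p of the 95 was 0.0929 in APP NLGF P16 KO over APP NLGF mice and 0.105 in P16 KO over WT mice, by edgeR.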

How the data were processed

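The deposited values are raw counts, whole numbers with a different total in each of the 23 libraries. Per the labels' protocols, the authors counted uniquely aligned, unambiguous reads per gene. Per the submitters' processing notes, reads were trimmed with cutadapt 4.2, cleared of ribosomal RNA with Bowtie2 2.3.5 and aligned with STAR 2.7.10b to GRCm38, and DESeq2 1.45.3 was used. A later mouse build is also listed, and 36795 of 37060 genes shared with GENCODE M21 on GRCm38 had identical coordinates, the 38 members among them. All columns of counts were used.

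The counts of all genes were tested with edgeR 4.0.16 in R 4.3.3 (filterByExpr minimum 10, TMM, robust quasi-likelihood, 1 fit of the 4 genotypes, two-sided, Benjamini-Hochberg over 19423 genes, threshold 0.05), and with DESeq2 1.42.0 as an alternative. The test was checked on simulated data. CPM are scaled by TMM library sizes, and scores used log2 CPM with a prior count of 2. Replicates are separate mice, 1 library each. There were no molecular identifiers, so PCR copies were not separated. Members, classes and lists were chosen with earlier results of these data known. By rule, every called member was named, with the 2 of smallest p per class in each averaged effect, and of the other lysosomal genes at most 6 called per single comparison. Other genes of that list are examples chosen after their values were seen. Not every called gene of that list is reported here. Alternatives were another scaling, other count filters, sex as a covariate, removal of length and GC trends, the compared genotypes alone and leaving out libraries. Sex was inferred from the level of the gene Xist in each library. Xist was high in 3 of 6 APP NLGF P16 KO, 2 of 5 APP NLGF, 3 of 6 P16 KO and 3 of 6 WT libraries.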

Additional observations from a re-analysis of the deposited data

Results flagged for a closer look

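In 11 of 152 combinations of a member and a genotype, 1 library stood far from the others of its genotype. A rule of this kind picks out about 1 in 20 groups by chance. Of these, 4 were pump subunits in APP NLGF P16 KO library 23, all low: Atp6v0d1 with 222.8 CPM (others 267.2 to 289.0), Atp6v1c1 with 266.6 CPM (334.2 to 353.9), Atp6v1d with 245.7 CPM (305.1 to 325.0) and Atp6v1e1 with 328.9 CPM (410.7 to 454.9). In the same genotype Atp6v1g2 was high in library 20 with 665.0 CPM (541.1 to 576.4), and Lamp1 was high in library 21 with 460.1 CPM (332.7 to 376.2). In P16 KO mice Atp6v0d1 was low in library 7 with 233.1 CPM (254.1 to 262.2). In APP NLGF mice Lipa was high in library 15 with 43.2 CPM (28.3 to 31.1) and Npc1 was high in library 16 with 93.0 CPM (78.9 to 82.9). In WT mice Lipa was high in library 1 with 46.1 CPM (26.4 to 31.9) and Naglu was high in library 4 with 11.9 CPM (8.77 to 9.88). Causes were not tested.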

How the results depend on the processing

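No paired analysis was possible because replicate numbers run from 1 to 23 across the genotypes and none is shared. Members called in APP NLGF over WT mice (1, Gusb) numbered 0 with no count filter, 2 with length and GC trends removed, 3 with DESeq2 and 0 to 1 without single libraries. With the compared genotypes alone the 1 member called there was Laptm5, and the call of Gusb was lost. In APP NLGF P16 KO over P16 KO mice (1) they numbered 0 with no count filter, 3 with length and GC trends removed, 0 with the compared genotypes alone, 0 without the library past the distance limit, 3 with DESeq2, 0 without libraries 21 and 23 and 0 to 2 without single libraries. In P16 KO over WT mice (0) they numbered 1 with the compared genotypes alone, 1 with DESeq2 and 1 without libraries 21 and 23. In APP NLGF P16 KO over APP NLGF mice (0) they numbered 6 with DESeq2, 12 without libraries 21 and 23 and 0 to 14 without single libraries. The averaged App effect (3) gave 5 with DESeq2. The averaged p16 effect (9) gave 14 without libraries 21 and 23 and 2 to 15 without single libraries. The hydrolase minus pump score, taken as a median over members with Atp6v0c included, gave -0.051 in P16 KO over WT mice (0.05 as a mean) and -0.23 in APP NLGF P16 KO over APP NLGF mice (-0.05 as a mean). The causes were not tested. Of the values of single genes named under these alternatives, 6476 kept their call and direction, 85 gained a call, 91 lost one and 0 reversed. Removal of libraries 21 and 23 was chosen after seeing the data. Over all genes, calls in APP NLGF over WT mice numbered 62, and 153 with DESeq2. In APP NLGF P16 KO over P16 KO mice they numbered 48, but 19 with the compared genotypes alone, 29 without library 21, 27 without libraries 21 and 23 and 101 with DESeq2. In P16 KO over WT mice they numbered 60, but 19 with length and GC trends removed, 356 with the compared genotypes alone, 189 without library 21, 403 without libraries 21 and 23 and 469 with DESeq2. In APP NLGF P16 KO over APP NLGF mice they numbered 6, but 17 with no count filter, 3 with length and GC trends removed, 0 with the compared genotypes alone, 2393 without libraries 21 and 23 and 676 with DESeq2. The averaged App effect had 154, and 285 with DESeq2. The averaged p16 effect had 2522, but 1364 with no count filter, 1410 without library 21 and 4251 without libraries 21 and 23. At these depths the scarcest members, such as Tfeb, were counted least precisely.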
